A study of Homo sapiens with 12 samples.

Results

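Gene expression in breast cancer tissue grown beside cardiac tissue was compared with that in breast cancer tissue grown beside hepatic tissue. The comparison rests on 8 of the 12 samples of the series, 4 libraries per co-culture, chosen by their labels, and covers all genes with enough counts to be tested. The sequenced tissue was GFP-MDA-MB-231, a triple-negative human breast cancer line with mesenchymal features that carries a green fluorescent protein, embedded in fibrin gel in the AngioPlate, a perfused culture plate. The neighbour in the cardiac co-culture was a tissue of iPSC-derived cardiomyocytes (heart muscle cells grown from reprogrammed stem cells) to which 2% cardiac fibroblasts were added. In the hepatic co-culture it was made of HepG2, a human line derived from a liver tumour, with 2% lung fibroblasts. All tissues lay in fibrin and were kept under flow, and cancer tissue RNA was collected on day 5 after seeding. The other 4 libraries, cancer tissue grown without a second tissue (monoculture), serve only to say which co-culture departs from it. The labels name the libraries biological replicates without giving their cultures or seedings, so the p-values speak to differences among these libraries, which may be technical. Neither the stem cell line nor the culture media could be taken from the labels.

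Several of the gene groups below belong to known control circuits. The glucocorticoid receptor is a steroid-activated transcription factor, and FKBP5, TSC22D3, PER1, DUSP1 and ZBTB16 are among its widely shared targets. Metallothioneins are small cysteine-rich proteins that bind zinc and copper; the zinc sensor MTF1 induces them through metal response elements, and glucocorticoids induce several of them as well. MHC class II molecules present peptides to helper T cells, and CIITA is the coactivator on which their genes depend, acting through promoters whose conserved elements include a CCAAT box bound by NF-Y. NF-kB is the transcription factor of inflammatory signalling, and it induces its own inhibitors, such as NFKBIA.

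For metallothionein, class II and NF-kB feedback genes that differed between the co-cultures, the 250 bases before 1 annotated start of the gene are printed here. The elements named above can thus be seen (RefSeq, GRCh38.p14). Capitals mark the matches found. The metal response element core was searched as TGCGCNC or TGCACNC on both strands, and MT2A held 7 matches and MT1X 4. Among all 27305 promoters of that length in the RefSeq table, 24.7% held at least 1. The share was 30.6% among the promoters of genes higher in the cardiac co-culture, 32.0% among those higher in the hepatic one and 32.7% among all tested genes.
MT2A (chr16:56608334-56608583, plus strand): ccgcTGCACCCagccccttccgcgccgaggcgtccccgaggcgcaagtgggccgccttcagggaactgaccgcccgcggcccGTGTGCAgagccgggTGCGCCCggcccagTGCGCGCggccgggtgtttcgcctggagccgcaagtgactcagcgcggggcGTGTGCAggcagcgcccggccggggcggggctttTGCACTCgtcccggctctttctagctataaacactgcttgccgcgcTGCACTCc
MT1X (chr16:56682220-56682469, plus strand): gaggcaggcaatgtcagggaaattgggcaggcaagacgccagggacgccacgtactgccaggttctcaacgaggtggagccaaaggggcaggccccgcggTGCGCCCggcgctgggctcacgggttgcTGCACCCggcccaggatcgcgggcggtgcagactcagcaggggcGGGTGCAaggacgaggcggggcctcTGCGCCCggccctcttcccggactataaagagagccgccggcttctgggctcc

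The CCAAT box was searched as CCAAT on both strands, and 6 of the 7 called class II genes with an entry held at least 1, against 33.0% of all 27305 promoters. HLA-DPA1 held 0. CD74 is shown with 1 match, and HLA-DPB1 and HLA-DMA with 2 each.
CD74 (chr5:150412911-150413160, minus strand): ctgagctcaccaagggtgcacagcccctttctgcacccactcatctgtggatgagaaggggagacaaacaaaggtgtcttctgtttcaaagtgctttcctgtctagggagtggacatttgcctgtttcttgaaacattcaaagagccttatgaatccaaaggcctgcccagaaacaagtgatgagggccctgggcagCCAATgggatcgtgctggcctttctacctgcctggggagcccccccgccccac
HLA-DPB1 (chr6:33075740-33075989, plus strand): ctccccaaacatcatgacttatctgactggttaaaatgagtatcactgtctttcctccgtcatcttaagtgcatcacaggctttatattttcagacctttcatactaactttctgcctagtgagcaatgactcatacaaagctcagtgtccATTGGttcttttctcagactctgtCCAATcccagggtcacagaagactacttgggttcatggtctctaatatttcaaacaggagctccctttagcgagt
HLA-DMA (chr6:32953098-32953347, minus strand): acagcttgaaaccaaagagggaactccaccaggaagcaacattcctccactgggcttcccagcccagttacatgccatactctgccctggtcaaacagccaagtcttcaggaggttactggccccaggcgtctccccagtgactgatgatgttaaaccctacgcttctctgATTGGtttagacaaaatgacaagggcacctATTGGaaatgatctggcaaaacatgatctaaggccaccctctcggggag

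The NF-kB motif, searched on both strands, had 2 matches before BIRC3 and 1 before NFKBIA, and 9.57% of all promoters held at least 1. It had 0 matches in the window taken for TNIP1 (chr5:151065132-151065381), which holds only for the RefSeq start used. The glucocorticoid response element palindrome, searched on both strands, had 0 matches before FKBP5, TSC22D3, PER1, DUSP1 and ANGPTL4, and 0.33% of all promoters held it. A match of letters is a description of the sequence and not a binding site. The lack of one covers only these 250 bases before the annotated start used. MT1E, MT1F, HLA-DRA, CIITA, SAA1, SAA2, C3 and SCNN1A were not matched.
BIRC3 (chr11:102317234-102317483, plus strand): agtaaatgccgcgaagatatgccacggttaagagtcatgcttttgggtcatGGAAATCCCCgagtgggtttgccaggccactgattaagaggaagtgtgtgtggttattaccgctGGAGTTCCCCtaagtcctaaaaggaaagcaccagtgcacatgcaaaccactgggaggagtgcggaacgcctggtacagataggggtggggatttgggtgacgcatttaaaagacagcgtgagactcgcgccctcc
NFKBIA (chr14:35404750-35404999, minus strand): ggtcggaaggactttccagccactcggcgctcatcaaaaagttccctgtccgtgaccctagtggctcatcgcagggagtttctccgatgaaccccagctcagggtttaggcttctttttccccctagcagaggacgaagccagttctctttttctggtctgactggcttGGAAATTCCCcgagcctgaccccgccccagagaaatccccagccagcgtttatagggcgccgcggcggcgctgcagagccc

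Library totals were 26986277 to 37400378 counts in the cardiac, 26227140 to 42430001 in the hepatic and 35042363 to 42047064 in the monoculture group. Cardiac replicate 4 stood apart from the other cardiac libraries. On the first principal component of the 8 libraries (27.5% of the variance) the cardiac libraries lay from -38.8 (replicate 4) to -17.7 and the hepatic ones from 18.1 to 32.1. On the second (18.6%), cardiac replicate 4 lay at -29.4 and the other cardiac libraries from 2.11 to 29.2. With monoculture included, it lay at -24.9 on the first component, among the monoculture libraries at -51.1 to -22.3, while the other cardiac libraries lay from 6.79 to 16.3. Counts without this library are therefore given for the comparison as a whole and for several gene groups below. Some other group counts changed without it too. Members called higher in the cardiac co-culture went from 4 to 5 for endoplasmic reticulum chaperones and from 3 to 4 for NF-kB genes. For lipid storage and fatty acid oxidation they went from 6 to 5. Those called higher in the hepatic co-culture went from 4 to 3 for ectonucleotidases and from 3 to 4 for YAP and TAZ genes.

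Markers of the labelled line were present in every library, with VIM at 700.0 to 1046 CPM (counts scaled to library size with TMM factors) in the cardiac and 963 to 1246 CPM in the hepatic libraries and CD44 at 309 to 342 and 323 to 387 CPM. RNA of the neighbouring tissues was near the limit of detection by its defining markers. Counts of ALB, serum albumin, ranged from 0 to 6 in hepatic libraries, and those of APOA1, an apolipoprotein, from 1 to 4. TNNT2, cardiac troponin T, had 0 to 2 counts in the cardiac libraries, while the 21 counts of MYH6, a cardiac myosin, all came from cardiac replicate 4. Among cardiac libraries MYL7, ACTN2 and ACTC1 were also highest in replicate 4, with 8, 8 and 14 counts. Other cardiomyocyte markers were not, and MYL2 and TNNC1 were highest in replicate 3, with 13 and 11 counts. Of 22 hepatocyte markers 2 were at 0 in all 8 libraries (APOA2 and RBP4), and 3 reached 1 CPM in monoculture. The summed hepatocyte markers were nevertheless higher in the cardiac libraries, at 100.6 to 140.6 CPM, than in the hepatic ones, at 45.2 to 76.2 CPM (exact permutation p = 0.0286, adjusted p = 0.0429), and SERPINA1 and HP made up most of the sum. Of the 5 tested members 3 had a log2 fold change above 0. FGG (means 3.59 against 5.06 CPM) and CYP2E1 (2.32 against 3.38 CPM) were lower in the cardiac libraries, without a call. AFP, too low to be tested, had 0 to 2 counts in the cardiac, 0 to 14 in the hepatic and 0 to 11 in the monoculture libraries.

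Summed cardiomyocyte markers were 29.8 to 33.4 CPM in the cardiac and 23.2 to 25.2 CPM in the hepatic libraries (exact permutation p = 0.0286, adjusted p = 0.0429). TTN and LDB3 made up most of this sum and were present in monoculture too. Of the 3 tested members 2 were higher in the cardiac libraries. TTN went the other way, at means of 17.4 CPM in the cardiac and 19.2 CPM in the hepatic libraries. LDB3, a Z-disc protein of striated muscle, had 6.61 ± 0.915 CPM there, 10.7 ± 0.915 in the cardiac and 2.74 ± 0.566 in the hepatic co-culture (SD, n = 4). Summed fibroblast markers overlapped between the co-cultures, at 399.6 to 507.7 and 305.4 to 474.5 CPM (exact permutation p = 0.114, adjusted p = 0.114). Summed endothelial markers were lower in the cardiac libraries (81.4 to 90.7 against 99.7 to 109.3 CPM). So were summed markers of the cancer line (6034 to 6344 against 6564 to 7072 CPM). Both had exact permutation p = 0.0286, adjusted p = 0.0429. Most of the endothelial sum was ESAM (means 69.0 against 80.3 CPM) and PECAM1 (10.2 against 15.5 CPM). Monoculture held both, at 64.5 and 10.9 CPM. CDH5 never exceeded 5 counts and ERG stayed at 0. Of the 6 tested members, 1 went the other way, KDR, at 2.35 against 1.26 CPM. The value 0.0286 is the smallest 2-sided p that 4 against 4 libraries allow. Pluripotency markers summed to 6.31 to 12.0 CPM in the cardiac and 11.0 to 13.2 CPM in the hepatic libraries (exact permutation p = 0.0857, adjusted p = 0.103). The part of other cell types in the results below was not tested; in these bulk samples fewer cells of a type and less RNA per cell cannot be told apart.

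Of 16455 genes tested, 770 (4.68%) differed between the co-cultures by edgeR's quasi-likelihood test at an adjusted p under 0.05, and these are called here. The genes called divided into 404 higher in the cardiac (2.46% of those tested) and 366 higher in the hepatic co-culture (2.22%). A change of at least 2-fold was found for 176 of them (1.07%), 116 higher in the cardiac (0.705%) and 60 higher in the hepatic co-culture (0.365%). The median log2 fold change over all tested genes, cardiac minus hepatic, was -0.002. The 4 cardiac libraries lay entirely above the 4 hepatic ones for 1021 genes (6.2%) and entirely below for 1013 (6.16%). Without cardiac replicate 4, 757 of 16771 genes (4.51%) were called, 415 higher in the cardiac (2.47%) and 342 in the hepatic co-culture (2.04%), and 591 genes were called in both fits. The count fell furthest without hepatic replicate 3, to 363. It fell to 422 without cardiac replicate 3, 489 without hepatic replicate 4 and 504 without hepatic replicate 2, and rose to 923 without hepatic replicate 1.

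**Figure D1:**
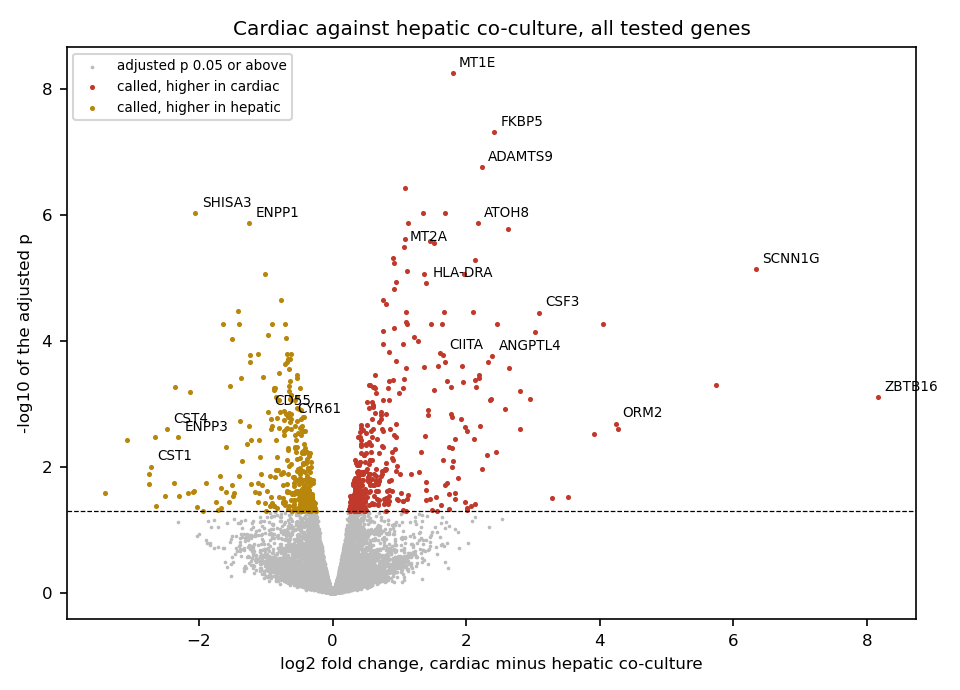
Each point is 1 of the 16455 tested genes, with the log2 fold change (cardiac minus hepatic co-culture) on the x axis and -log10 of the adjusted p on the y axis; red points were called higher in the cardiac and gold points higher in the hepatic co-culture, above the dashed threshold. MT1E has the smallest adjusted p, and the genes furthest to the right, ZBTB16 and SCNN1G, have few or no counts in the hepatic libraries.

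Within protein-coding genes above a mean of 1 logCPM whose libraries did not overlap, the 10 with the highest log2 fold change were DAAM2, IP6K3, ANKRD35, ANPEP, FKBP5, ANGPTL4, PGC, ALOX15B, HP and ADAMTS9. DAAM2, a formin that regulates actin, came first at 3.03 ± 0.34 (SE; adjusted p = 7.08e-05), with 4.76, 4.23, 3.11 and 5.26 CPM in cardiac replicates 1 to 4 and 0.353, 0.732, 0.2396 and 0.765 in hepatic replicates 1 to 4. Monoculture lay between them at 2.27 ± 0.481 CPM. IP6K3, an inositol phosphate kinase, had the same order, with 4.59 ± 1.18 CPM in the cardiac, 2.19 ± 0.425 in monoculture and 0.737 ± 0.364 in the hepatic co-culture (log2 fold change 2.64 ± 0.34).

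ADAMTS9, a secreted protease that cleaves proteoglycans, had 26.9, 30.4, 28.2 and 27.3 CPM in the cardiac and 6.84, 4.93, 5.37 and 6.96 in the hepatic libraries (2.23 ± 0.13, adjusted p = 1.71e-07). Its hepatic libraries sat below every cardiac and every monoculture library. ALOX15B, a lipoxygenase, had 20.1, 22.8, 15.01 and 11.6 CPM against 4.94, 2.34, 3.63 and 2.94 (2.33 ± 0.26, adjusted p = 0.000216). ANPEP, an aminopeptidase of the cell surface, had 4.72, 4.64, 4.39 and 11.9 CPM against 1.16, 1.01, 1.47 and 0.6499 (2.58 ± 0.37, adjusted p = 0.0012), so cardiac replicate 4 was far above the other cardiac libraries, which themselves lay above all hepatic ones. ANKRD35, a protein with ankyrin repeats, and PGC, a pepsinogen, were higher by 2.63 ± 0.20 and 2.36 ± 0.35 (adjusted p = 1.67e-06 and 0.000867).

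Most of the difference between the co-cultures went with a departure of the hepatic libraries from monoculture. Of the 770 genes called, 563 (73.1%) differed from monoculture in the hepatic co-culture alone, 46 (5.97%) in the cardiac alone, 61 (7.92%) in both in the same direction and 13 (1.69%) in opposite directions, while 87 (11.3%) passed neither test. These contrasts share the monoculture libraries, and in the same fit 28% of all genes differed between monoculture and the hepatic co-culture, against 8.26% for the cardiac one. Among the 404 genes higher in the cardiac co-culture, 299 departed from monoculture in the hepatic co-culture alone and 27 in the cardiac one alone. Among the 366 higher in the hepatic co-culture these counts were 264 and 19.

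The 13 genes that departed in opposite directions were RBM24, GULP1, LGR4, ZMYND8, DNAH5, RHOV, MT2A, CLMP, MT1E, LDB3, IP6K3, DAAM2 and ORM2, listed whatever their rank. The counts by side depended on single libraries. Genes with a hepatic departure alone ranged from 288 (without hepatic replicate 3) to 623 (without hepatic replicate 1), and those with a cardiac departure alone from 13 (without cardiac replicate 2 or 3) to 137 (without cardiac replicate 4). Genes with both departures ranged from 17 (without cardiac replicate 2 or 3) to 162 (without cardiac replicate 4), so the hepatic share was 52.8% without cardiac replicate 4.

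Each library was also placed between the co-culture means on every called gene, 0 being the hepatic and 1 the cardiac mean of log2 CPM, with genes and means taken from fits that did not use that library. Cardiac replicates 1 to 4 had medians of 0.803, 0.914, 0.886 and 0.960, and hepatic replicates 1 to 4 had 0.249, 0.107, -0.0404 and 0.117. Monoculture replicates 1 to 4 had 0.962, 0.970, 1.16 and 1.10, with 80% to 89.9% of genes nearer the cardiac mean. The monoculture libraries were thus placed with the cardiac ones, hepatic replicate 1 was the hepatic library nearest to them, and cardiac replicate 4 had the widest spread of the cardiac libraries, with 9.78% of its genes beyond the hepatic mean.

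**Figure D2:**
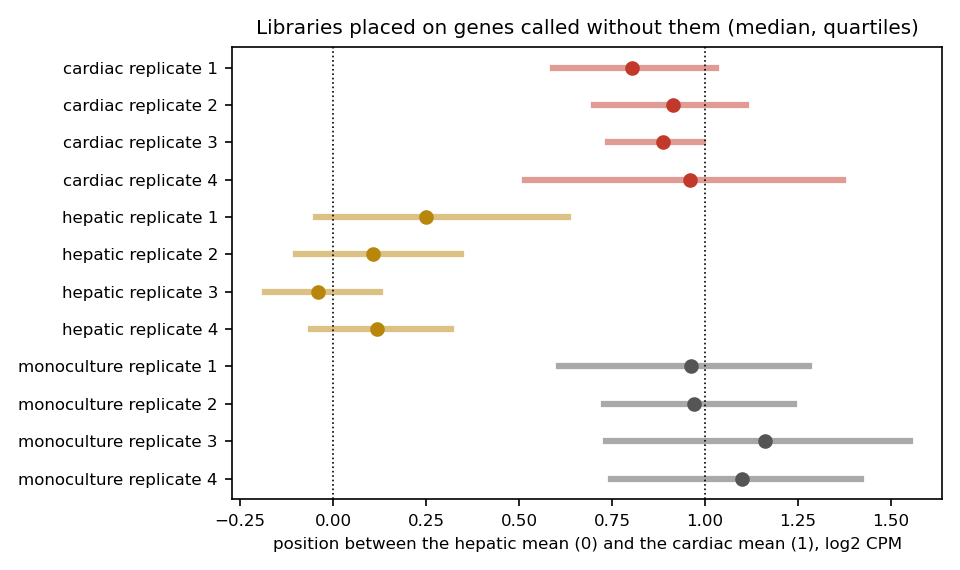
Points are medians and bars quartiles, over the genes called without the library in question, of a library's place between the hepatic mean (0) and the cardiac mean (1) in log2 CPM. The 4 monoculture libraries lie at 0.962 to 1.16, beside the cardiac ones, and the hepatic libraries lie from -0.0404 to 0.249.

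Glucocorticoid receptor targets formed the group with the most called members among lists of 20 or more genes: 12 of 20 tested were higher in the cardiac co-culture, against 2.46% of all genes, and the median log2 fold change was 1.08 against -0.002 over all genes. By unadjusted p 13 were higher and 0 lower, and DESeq2 called 13 and 0. The number was 9 without hepatic replicate 3 or 4 and 13 without cardiac replicate 4. Against monoculture, 12 of the 20 were lower in the hepatic co-culture and 4 were higher in the cardiac one.

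FKBP5 (ENSG00000096060, chr6:35573585-35728583, GRCh38), a cochaperone that dampens the receptor, had 241, 227, 225 and 288 CPM in cardiac replicates 1 to 4 and 39.2, 54.6, 41.03 and 47.9 in hepatic replicates 1 to 4. Its log2 fold change was 2.42 ± 0.12 (adjusted p = 4.8e-08), and monoculture had 300.2 ± 44.1 CPM. TSC22D3, the anti-inflammatory leucine zipper GILZ, had 304, 336, 261 and 228 CPM against 131, 124, 149 and 121 (1.11 ± 0.11, adjusted p = 4.86e-05). In each of these genes the hepatic libraries lay below all cardiac and all monoculture libraries.

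PER1, a clock component that the receptor also induces, had 64.02, 78.1, 68.9 and 73.03 CPM against 36.2, 32.01, 33.3 and 32.5 (1.09 ± 0.08, adjusted p = 2.4e-06). DUSP1, a phosphatase of MAP kinases, had 246, 267, 213 and 172 CPM against 90.6, 80.1, 88.4 and 88.04 (1.37 ± 0.11, adjusted p = 8.59e-06). Both had hepatic libraries within a narrow range, and the cardiac libraries of DUSP1 varied more than those of PER1. ZBTB16, a zinc finger repressor known as PLZF, had 138 counts over the cardiac libraries and 0 over the hepatic ones. With a floor of 3 counts over the hepatic group it was at least 46.5-fold higher in the cardiac co-culture (adjusted p = 0.000771).

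ANGPTL4, an inhibitor of lipoprotein lipase that also answers to fatty acids and hypoxia, had 199, 204, 163 and 156 CPM in the cardiac and 41.2, 38.9, 22.2 and 35.1 in the hepatic libraries (2.39 ± 0.19, adjusted p = 0.000174). PDK4, a kinase that restrains pyruvate oxidation, differed less (0.55 ± 0.12, adjusted p = 0.0182), and its call ended without hepatic replicate 3 or 4 (adjusted p up to 0.0648) and with all 12 libraries in the fit (0.0739). The receptor gene itself, NR3C1, had 135 ± 10.97 and 144 ± 3.58 CPM, a log2 difference of -0.09 ± 0.07 that did not pass (adjusted p = 0.528). SGK1, a kinase often induced by glucocorticoids, had overlapping libraries at 8.97 to 18.8 and 10.98 to 20.2 CPM (-0.23 ± 0.24, adjusted p = 0.656). The list thus held members without a call as well as the 12 called ones.

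**Figure D3:**
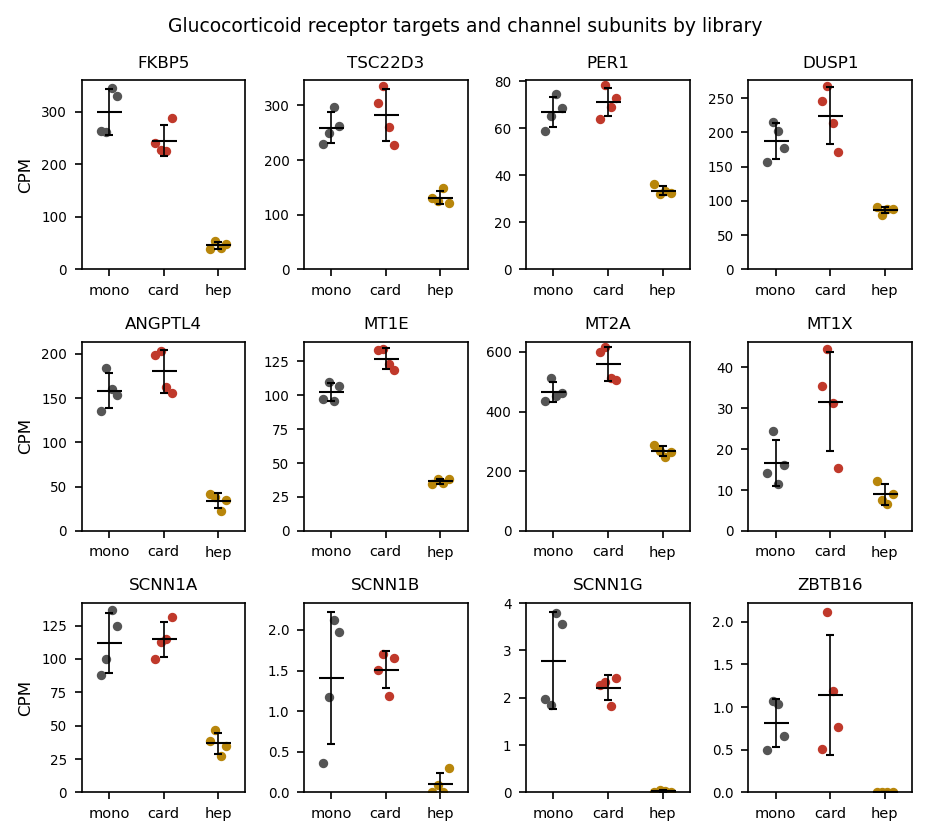
CPM of 12 genes in each library of monoculture (mono), cardiac (card) and hepatic (hep) co-culture; points are libraries, horizontal lines are means and bars are 1 SD (n = 4). In all 12 genes shown the hepatic libraries lie below the cardiac ones, and in FKBP5 they lie at 39.2 to 54.6 CPM against 225 to 288 CPM.

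Metallothioneins were higher in the cardiac co-culture. Of 8 tested genes in the list of metallothioneins and zinc transport, 4 were called, with a list median of 1.07. All 4 were metallothioneins higher in the cardiac libraries, where 2.46% of all genes were called higher. MT1E (ENSG00000169715, chr16:56625475-56627112) had the smallest adjusted p of all 16455 genes. It had 133, 134, 123 and 119 CPM in cardiac replicates 1 to 4 and 34.6, 38.6, 35.2 and 37.96 in hepatic replicates 1 to 4 (1.80 ± 0.08, adjusted p = 5.47e-09). Monoculture, at 102 ± 6.87 CPM, lay between them: the cardiac libraries were above it by 0.31 ± 0.07 (adjusted p = 0.0144) and the hepatic ones differed by -1.49 ± 0.07 (adjusted p = 2.73e-10).

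MT2A (ENSG00000125148, chr16:56608199-56609497), whose promoter is printed above, had 599.6, 616, 513 and 507 CPM against 287, 267, 248 and 266 (1.07 ± 0.09, adjusted p = 3.15e-06), with monoculture between at 465 ± 32.4 CPM. MT1X had 35.5, 44.4, 31.3 and 15.3 CPM against 12.3, 7.53, 6.64 and 9.14 (1.83 ± 0.34, adjusted p = 0.0258), and its lowest cardiac library, replicate 4, lay above the highest hepatic one. MT1F was called at 2.01 ± 0.54 (adjusted p = 0.0474) on 0.526 to 1.39 CPM against 0.0684 to 0.535, where the groups overlapped. The calls of MT1X (adjusted p up to 0.0872) and MT1F (up to 0.135) ended without cardiac replicate 1 or 3 or hepatic replicate 2 or 3, which left 2 of 8, and MT1X's also without hepatic replicate 4 and MT1F's without cardiac replicate 2 or hepatic replicate 1.

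The zinc sensor MTF1 had 38.4 ± 1.37 and 31.3 ± 3.25 CPM (0.30 ± 0.09, adjusted p = 0.0794), and the zinc exporter SLC30A1, another MTF1 target, had overlapping libraries at 63.8 to 92.4 and 71.9 to 77.7 CPM (-0.02 ± 0.10, adjusted p = 0.94), with the sign turned without cardiac replicate 1 (0.03) or 2 (0.05). Neither passed the test, and SLC30A1 was below its monoculture level in both co-cultures (cardiac -0.43 ± 0.09, adjusted p = 0.0126; hepatic -0.40 ± 0.09, adjusted p = 0.00321). Metallothionein genes are close paralogs, and how reads matching several of them were counted is not stated in the labels.

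The alpha, beta and gamma subunits of the epithelial sodium channel were all called higher in the cardiac co-culture in each fit without 1 library. The channel carries sodium into the cell and is an aldosterone and glucocorticoid target in kidney and lung. SCNN1A, the pore-forming alpha subunit, had 99.95, 113, 115 and 131 CPM against 38.6, 46.7, 27.6 and 34.4 (1.64 ± 0.14, adjusted p = 5.29e-05). SCNN1G, the gamma subunit, had 276 counts over the cardiac and 3 over the hepatic libraries, a ratio of 93.1 with a 95% exact counting interval of 31.5 to 454 that covers counting error only (adjusted p = 7.16e-06). SCNN1B, the beta subunit, had 1.502, 1.699, 1.19 and 1.66 CPM against 0, 0.0944, 0 and 0.306 (adjusted p = 0.00302). In all 3 genes the monoculture means, 112 ± 22.3, 2.78 ± 1.03 and 1.41 ± 0.812 CPM, were nearer the cardiac level. The list of the channel and its regulators held 8 tested genes, and its other called member, ATP1B1, a subunit of the sodium pump, was higher in the hepatic co-culture and not called without cardiac replicate 1, 3 or 4 or hepatic replicates 2 to 4. Of the 8, only 3 had a log2 fold change above 0, and the list's median was -0.067. Over all genes, 2.46% were called higher in the cardiac and 2.22% higher in the hepatic co-culture.

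MHC class II genes were higher in the cardiac co-culture: 9 of 10 tested members were called, against 2.46% of all genes. The list's median was 1.43. From 8 (without hepatic replicate 3 or 4) to 10 (without hepatic replicate 1) were called when 1 library was left out. CIITA (ENSG00000179583, chr16:10866222-10943021), the coactivator, had 13.5, 17.8, 21.8 and 27.9 CPM in cardiac replicates 1 to 4 and 5.82, 6.87, 7.19 and 5.89 in hepatic replicates 1 to 4 (1.65 ± 0.19, adjusted p = 0.000165). Cardiac replicate 4 was the highest and replicate 1 the lowest cardiac library, and the lowest was still above the highest hepatic one. Monoculture had 18.9 ± 1.36 CPM.

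Of the antigen-presenting chains, HLA-DRA had 74.1, 68.9, 73.2 and 94.8 CPM against 31.5, 34.5, 24.2 and 27.9 (1.40 ± 0.12, adjusted p = 1.2e-05). HLA-DPA1 had 35.4, 37.3, 33.5 and 48.1 CPM against 14.99, 16.9, 10.4 and 13.3 (1.47 ± 0.15, adjusted p = 5.29e-05). HLA-DPB1 and HLA-DRB1, their beta chain partners, differed by 1.37 ± 0.17 and 1.51 ± 0.21 (adjusted p = 0.000257 and 0.000602). The hepatic libraries of each of these 4 genes lay below all cardiac libraries, and reads of HLA genes can match more than 1 locus.

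CD74, the invariant chain that occupies the peptide groove during transport, had 219, 218, 191 and 271 CPM against 145, 126, 92.4 and 103 (0.95 ± 0.14, adjusted p = 0.00332). Among the peptide loading factors, HLA-DMB differed by 1.68 ± 0.21, HLA-DMA by 0.67 ± 0.16 and the modulator HLA-DOA by 1.79 ± 0.33 (adjusted p = 0.000214, 0.0241 and 0.0049). HLA-DMA lost its call without hepatic replicate 3 or 4 (adjusted p up to 0.0868). CTSS, the protease that degrades the invariant chain, was the member not called (0.62 ± 0.26, adjusted p = 0.216). Against monoculture, 9 of the 10 were lower in the hepatic co-culture, and the list's median in the cardiac co-culture against monoculture was 0.29.

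MHC class I genes showed less: 3 of 17 were called higher in the cardiac co-culture, against 2.46% of all genes, with a median of 0.28. NLRC5, the class I counterpart of CIITA, had 29.8 ± 3.41 and 20.6 ± 2.36 CPM (0.53 ± 0.11, adjusted p = 0.0145). Of class I members, 0 were called without cardiac replicate 3 or hepatic replicate 3, 1 without hepatic replicate 2 and 5 without hepatic replicate 1, and NLRC5 ended at an adjusted p of up to 0.0578. Whether the class I and class II lists differ from each other was not tested.

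Acute phase and complement genes, secreted in inflammation, were called higher in the cardiac co-culture in 8 of 22 tested and higher in the hepatic one in 1. The median was 0.48, and the shares over all genes were 2.46% and 2.22%. SAA1, serum amyloid A, had 167, 133, 119.7 and 131 CPM against 58.9, 25.02, 35.97 and 39.1 (1.80 ± 0.25, adjusted p = 0.00807), and monoculture had 79.3 ± 9.87. C3, the central complement component, had 255, 287, 216 and 171 CPM against 99.3, 58.9, 61.1 and 58.2 (1.75 ± 0.23, adjusted p = 0.00484), and monoculture, at 115 ± 38.9 CPM, passed against neither co-culture. HP, haptoglobin, had 35.2, 38.6, 24.2 and 26.8 CPM against 3.81, 11.3, 6.26 and 4.702 (2.24 ± 0.34, adjusted p = 0.0106). In these 3 genes the lowest cardiac library was above the highest hepatic one, and hepatic replicate 1 was the highest hepatic library in SAA1 and C3.

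At lower levels, SERPINA3, an inhibitor of neutrophil proteases, had 2.97, 1.96, 2.196 and 1.08 CPM against 0.0705, 0.283, 0.308 and 0.497 (2.81 ± 0.48, adjusted p = 0.00246). ORM2, an acid glycoprotein, had 2.34, 1.62, 1.28 and 0.631 CPM against 0.0705, 0, 0.205 and 0.0382 (adjusted p = 0.00204), and its paralog ORM1 and the iron-sequestering lipocalin LCN2 were called as well (3.28 ± 0.72 and 1.40 ± 0.32, adjusted p = 0.0306 and 0.0231). SAA2 differed by 1.54 ± 0.31 (adjusted p = 0.0299) and was 1 of the genes that departed from monoculture in the cardiac co-culture alone (1.32 ± 0.30, adjusted p = 0.0265). In SERPINA3, ORM1, ORM2, SAA2 and LCN2 cardiac replicate 4 was the lowest cardiac library. Paralogous pairs such as SAA1 with SAA2 and ORM1 with ORM2 can share reads.

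CD55, a membrane regulator that protects cells from complement, was the member higher in the hepatic co-culture, with 154, 163, 137 and 111 CPM against 249, 325, 296 and 230.3 (-0.96 ± 0.13, adjusted p = 0.00131), and monoculture had 143 ± 13.2 CPM. The list's count was 4 without hepatic replicate 3, 5 without cardiac replicate 1 or 3 and 11 without cardiac replicate 4, whose absence added C1R, C1S and C1RL, subunits of the first complement component and a relative. HP lost its call without hepatic replicate 3 (adjusted p = 0.0524), LCN2 without cardiac replicate 1 or 3 or hepatic replicate 3 (up to 0.08), SAA2 without cardiac replicates 1 to 3 or hepatic replicate 1 or 3 (up to 0.0991), and ORM1 without cardiac replicates 1 to 3 or hepatic replicate 3 or 4 (up to 0.12). Summed hepatocyte markers, of which HP is a member, moved with this group, at 100.6 to 140.6 CPM in the cardiac and 45.2 to 76.2 CPM in the hepatic libraries, while ALB had 0 to 4 and 0 to 6 counts. Their part in the result was not tested.

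**Figure D4:**
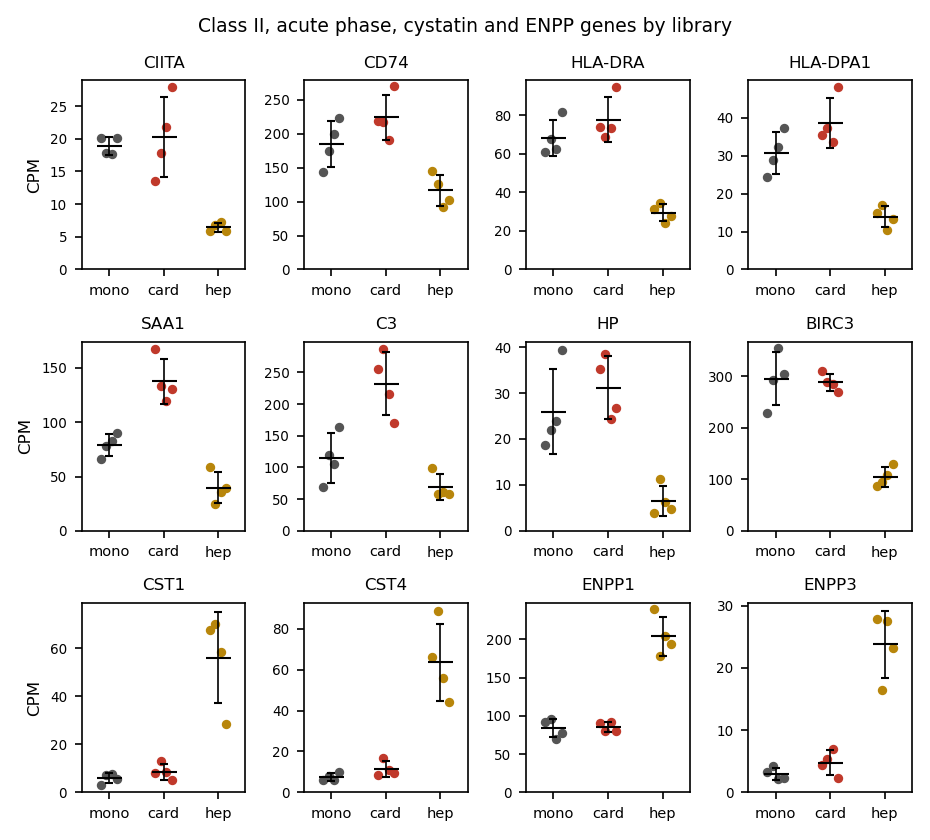
CPM of 12 genes in each library of monoculture (mono), cardiac (card) and hepatic (hep) co-culture; points are libraries, horizontal lines are means and bars are 1 SD (n = 4). The class II, acute phase and BIRC3 libraries lie lower in the hepatic co-culture, while CST1, CST4, ENPP1 and ENPP3 lie higher there, with ENPP1 at 178 to 239 CPM against 79.97 to 91.6 CPM.

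Of 19 NF-kB subunits and feedback genes, 3 were called higher in the cardiac and 1 higher in the hepatic co-culture. The median was 0.15, and the shares over all genes were 2.46% and 2.22%. BIRC3, an inhibitor of apoptosis whose promoter is printed above, had 309.8, 289.5, 285 and 269 CPM against 86.8, 94.2, 108 and 130.2 (1.46 ± 0.11, adjusted p = 2.57e-06). NFKBIA, the inhibitor of NF-kB, had 229.9, 211, 196 and 172 CPM against 132, 97.1, 121 and 151 (0.69 ± 0.12, adjusted p = 0.00585). For both the hepatic libraries were the ones that departed from monoculture (-1.49 ± 0.13 and -0.62 ± 0.16). TNIP1, which restrains NF-kB with ubiquitin, was higher in the cardiac co-culture too, by 0.55 ± 0.08 (adjusted p = 0.00115), but there it was the cardiac libraries that departed from monoculture (0.53 ± 0.08, adjusted p = 0.00324). IER3, an early response gene, was higher in the hepatic co-culture (229 ± 26.3 against 358 ± 46.5 CPM; -0.65 ± 0.10, adjusted p = 0.00138), and both co-cultures were above monoculture at 173 ± 16.3 CPM.

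Of 19 interleukin and colony-stimulating factor genes, 3 were called, all higher in the cardiac co-culture, against 2.46% of all genes. Without cardiac replicate 4, 5 were called. CSF3, the granulocyte colony-stimulating factor, had 3.19, 2.83, 3.14 and 3.71 CPM against 0.353, 0.236, 0.342 and 0.612 (3.09 ± 0.32, adjusted p = 3.51e-05). The receptors IL7R and IL1R1, for interleukin 7 and interleukin 1, differed by 1.94 ± 0.25 and 0.72 ± 0.11 (adjusted p = 0.00025 and 0.00135). IL6 had overlapping libraries, 6.92 to 15.3 against 9.35 to 11.4 CPM, and did not pass (0.17 ± 0.20, adjusted p = 0.695).

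Lipid storage and fatty acid oxidation genes were called in 6 of 27 as higher in the cardiac and in 1 as higher in the hepatic co-culture. The median was 0.05, and the shares over all genes were 2.46% and 2.22%. Without hepatic replicate 4, 3 were higher in the cardiac co-culture. PLIN2, which coats lipid droplets, had 274, 232, 221 and 156 CPM against 129, 124, 104 and 122 (0.88 ± 0.15, adjusted p = 0.00572), and the cardiac libraries alone departed from monoculture (0.61 ± 0.16, adjusted p = 0.0411). CPT1A, which brings fatty acids into mitochondria, had 129 ± 21.4 against 88.6 ± 3.42 CPM (0.55 ± 0.10, adjusted p = 0.004), and the monoculture mean was above both at 169 ± 27.3 CPM. PLIN4, another droplet protein, differed by 1.11 ± 0.26 (adjusted p = 0.0323) and lost its call without cardiac replicate 3 or any 1 hepatic library (adjusted p up to 0.0918). Cardiac replicate 4, at 18.5 CPM, was the highest cardiac library of PLIN4, the others being at 7.62 to 10.1.

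Other genes called higher in the cardiac co-culture had small standard errors. EFNB2, a membrane ligand of Eph receptors, had 125, 130.2, 130.2 and 133 CPM against 57.9, 62.7, 61.3 and 63.8 (1.08 ± 0.07, adjusted p = 3.65e-07). CCND3, a D-type cyclin, had 373, 367, 361 and 421 CPM against 214, 232, 201 and 231 (0.80 ± 0.08, adjusted p = 2.57e-05). In both genes the groups did not overlap and the hepatic libraries departed from monoculture while the cardiac ones did not pass.

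SNAI2, a transcription factor of epithelial-mesenchymal transition, differed by 1.00 ± 0.14 (adjusted p = 0.000675), and F3, tissue factor, which starts coagulation, by 0.47 ± 0.09 (adjusted p = 0.00632). DCN, decorin, a matrix proteoglycan and fibroblast marker, had 2.49, 2.11, 2.17 and 1.31 CPM against 0.282, 0.425, 0.137 and 0.268 (2.81 ± 0.40, adjusted p = 0.000624), with monoculture at 2.48 ± 1.08 CPM. ATOH8, a basic helix-loop-helix factor downstream of BMP signalling, had 21.7, 20.6, 20.9 and 32.7 CPM against 5.04, 5.17, 5.89 and 5.16 (2.18 ± 0.16, adjusted p = 1.31e-06). Both co-cultures were below monoculture for ATOH8, which had 48.2 ± 16.7 CPM there.

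Among genes higher in the hepatic co-culture, the 10 lowest log2 fold changes under the same limits were those of HHIP, CST1, FCGR2A, CST4, TSPAN8, ENPP3, CST2, SHISA3, ADGRF5 and CD22. The secreted S-type cystatins, inhibitors of cysteine proteases, made up 3 of them. The same 3 were the members called of 7 cystatins tested in each fit that left out 1 library. Over all genes, 2.22% were called higher in the hepatic co-culture. CST1 (ENSG00000170373, chr20:23747553-23751268) had 8.06, 12.9, 8.36 and 4.997 CPM in cardiac replicates 1 to 4 and 67.7, 69.9, 58.5 and 28.4 in hepatic replicates 1 to 4 (-2.72 ± 0.38, adjusted p = 0.00984). CST4 had 8.61, 16.9, 11.04 and 9.34 CPM against 66.1, 88.4, 55.7 and 44.1 (-2.48 ± 0.29, adjusted p = 0.00246), and CST2 1.71 ± 0.366 against 7.49 ± 3.15 CPM (-2.13 ± 0.29, adjusted p = 0.00063). Hepatic replicate 4 was the lowest hepatic library in all 3, and the monoculture means, 5.98 ± 1.98, 7.55 ± 1.92 and 1.66 ± 0.432 CPM, did not differ from the cardiac ones by the same test. They are neighbouring paralogs on chromosome 20, so their reads may have been divided in counting.

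Ectonucleotidases, which break down extracellular nucleotides, were called higher in the hepatic co-culture in 4 of 9, against 2.22% of all genes. The number was 2 without cardiac replicate 2 or 3 or hepatic replicate 3 or 4. ENPP1, a source of pyrophosphate that also hydrolyses cyclic GMP-AMP, had 90.5, 80.5, 91.6 and 79.97 CPM against 239, 178, 205 and 195 (-1.25 ± 0.09, adjusted p = 1.31e-06). ENPP3, a relative found on basophils, had 4.395, 5.399, 7.02 and 2.31 CPM against 27.9, 16.5, 27.5 and 23.2 (-2.32 ± 0.31, adjusted p = 0.00332). The groups did not overlap in either gene, and the cardiac and monoculture means lay close together.

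SHISA3, an antagonist of Wnt and FGF receptors, had 17.1, 17.97, 16.1 and 12.3 CPM against 70.7, 64.3, 75.8 and 52.4 (-2.05 ± 0.13, adjusted p = 9.18e-07). HHIP, which binds and restrains hedgehog ligands, had 1.03, 1.89, 1.68 and 0.4997 CPM against 5.29, 15.3, 7.39 and 5.696 (-2.75 ± 0.48, adjusted p = 0.0126). CD22, a sialic acid-binding lectin best known from B cells, had 7.33, 5.17, 9.58 and 9.68 CPM against 21.9, 27.2, 27.3 and 23.7 (-1.65 ± 0.17, adjusted p = 5.29e-05). All 3 had hepatic libraries above every cardiac and monoculture library. TSPAN8, a tetraspanin, was also called (-2.36 ± 0.33, adjusted p = 0.000529), on group means of 0.768 ± 0.337 and 3.96 ± 1.25 CPM.

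FCGR2A, a receptor for IgG, and ADGRF5, an adhesion receptor of the G protein-coupled family, differed by -2.50 ± 0.53 and -1.67 ± 0.28 (adjusted p = 0.029 and 0.0215). ADGRF5 ranged over 38.6 to 51.1 CPM in the cardiac and 89.9 to 220.4 CPM in the hepatic libraries, with hepatic replicate 2 highest. Their calls ended without cardiac replicate 1 or 3 or hepatic replicate 3, and that of ADGRF5 also without cardiac replicate 4 (adjusted p up to 0.102 for FCGR2A and 0.0686 for ADGRF5). Of 85 called genes with values given here, ADGRF5 was the 1 that was not called without cardiac replicate 4. SLC4A7, a sodium bicarbonate cotransporter, had 84.4, 88.7, 95.9 and 73.5 CPM against 163, 182, 191 and 157 (-1.02 ± 0.09, adjusted p = 8.59e-06) and was called in each of the 8 fits without 1 library.

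Some genes were raised over monoculture in both co-cultures and further in the hepatic one. MDK, midkine, a heparin-binding growth factor, had 32.4, 36.9, 30.9 and 33.3 CPM in the cardiac, 55.6, 45.4, 54.3 and 50.8 in the hepatic and 18.5, 20.4, 17.4 and 17.2 in the monoculture libraries, and the co-cultures differed by -0.62 ± 0.09 (adjusted p = 0.000718). The laminin chains LAMA3 and LAMB1, of the basement membrane, differed between the co-cultures by -0.44 ± 0.10 and -0.36 ± 0.07 (adjusted p = 0.0162 and 0.0108). They were the members called of 12 laminins, while 2.22% of all genes were called higher in the hepatic co-culture. ITGB3, the integrin beta chain that pairs with the alpha V chain, had 23.4 ± 7.72 CPM against 65.98 ± 15.99 (-1.50 ± 0.28, adjusted p = 0.029), and monoculture had 9.94 ± 2.82. The calls of LAMA3 (adjusted p = 0.0787) and LAMB1 (0.0606) ended without hepatic replicate 3, and that of ITGB3 without cardiac replicate 1 or 3 or hepatic replicates 1 to 3 (up to 0.086).

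In the BMP pathway, which signals through SMADs to ID genes, 2 of 23 genes were called in each direction (all genes 2.46% and 2.22%). Those higher in the cardiac co-culture numbered 1 without cardiac replicate 1 or 2 or hepatic replicates 2 to 4 and 4 without cardiac replicate 4, and those higher in the hepatic one 0 without cardiac replicate 3 and 1 without cardiac replicate 1 or any 1 hepatic library. The ligand BMP5 had 2.42, 2.87, 2.13 and 0.526 CPM against 5.85, 6.11, 6.19 and 4.702 (-1.54 ± 0.37, adjusted p = 0.0352), and ID4, an inhibitor of differentiation, had 7.11, 9.78, 5.19 and 3.89 against 17.6, 21.4, 16.1 and 12.5 (-1.40 ± 0.26, adjusted p = 0.014). In both genes cardiac replicate 4 was the lowest cardiac library. BMP5 lost its call without any 1 library except cardiac replicates 2 and 4 (adjusted p up to 0.106), and ID4 without cardiac replicate 3 (adjusted p = 0.0521). NR4A2, an orphan nuclear receptor of the immediate early genes, was higher in the hepatic co-culture (-1.06 ± 0.22, adjusted p = 0.0189; 0.0648 without hepatic replicate 3).

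Of 18 circadian clock genes, 2 were called higher in the cardiac co-culture, PER1 and ARNTL, and 4 higher in the hepatic one. The shares over all genes were 2.46% and 2.22%. ARNTL, the activator BMAL1, had 18.2 ± 2.46 against 10.8 ± 2.19 CPM (0.75 ± 0.15, adjusted p = 0.0113), while PER3, a repressor, had 8.44 ± 1.66 against 15.1 ± 1.47 (-0.84 ± 0.15, adjusted p = 0.00376). The activator and PER3 thus differed in opposite directions. Without cardiac replicate 4, 4 were higher in the cardiac co-culture. Members higher in the hepatic co-culture numbered 1 without cardiac replicate 1 or 4 or hepatic replicate 3 and 2 without cardiac replicate 3 or hepatic replicate 1.

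In a smaller number of genes the cardiac libraries stood apart from both the hepatic co-culture and monoculture. CYR61 and CTGF, secreted matrix proteins and standard YAP targets, had 234, 258, 273 and 310.5 and 121, 135, 125 and 143 CPM in the cardiac libraries. In the hepatic libraries they had 375, 489, 398 and 403 and 170.1, 220.3, 156 and 176 CPM, and the log2 fold changes were -0.63 ± 0.10 and -0.46 ± 0.10 (adjusted p = 0.00172 and 0.0162). Against monoculture the cardiac libraries differed by -0.58 ± 0.11 and -0.38 ± 0.10 and the hepatic ones by 0.05 ± 0.11 and 0.09 ± 0.10. CTGF lost its call between the co-cultures without cardiac replicate 1 or 3 (adjusted p up to 0.0702). Of 24 YAP and TAZ genes and targets, 2 were higher in the cardiac and 3 in the hepatic co-culture (1 without hepatic replicate 3 and 1 without cardiac replicate 3, respectively). Over all genes, 2.46% and 2.22% were called in these directions.

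HIF1A, the oxygen-regulated transcription factor subunit, had 391.6, 382, 426 and 484 CPM in the cardiac and 533, 556, 598 and 555 in the hepatic libraries (-0.41 ± 0.09, adjusted p = 0.0118; 0.0617 without hepatic replicate 3). HSPH1, a chaperone of the HSP110 family, had 176, 178, 174 and 186 CPM against 223, 222, 232 and 229.9 (-0.34 ± 0.06, adjusted p = 0.00595). Both were lower in the cardiac libraries than in monoculture (-0.46 ± 0.09 and -0.54 ± 0.07), while the hepatic libraries did not pass against it.

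Endoplasmic reticulum chaperones were called higher in the cardiac co-culture in 4 of 20, against 2.46% of all genes. Of the 20 log2 fold changes 19 were above 0, against 49.6% over all genes, with a median of 0.18. They come from the same libraries and are not separate observations. HSPA5, the main chaperone of that compartment, had 1386 ± 133 against 1061 ± 78.2 CPM (0.39 ± 0.09, adjusted p = 0.0242) and departed from monoculture in the cardiac libraries alone (0.41 ± 0.08). HYOU1, its nucleotide exchange partner, had 249, 264, 265 and 264 CPM against 207, 189, 199.8 and 205 (0.38 ± 0.07, adjusted p = 0.00334), and it was the hepatic libraries that departed (-0.30 ± 0.06, adjusted p = 0.00101). The count was 1 without cardiac replicates 1 to 3 or hepatic replicates 2 to 4, and 2 with the replicate number as a block. HSPA5 lost its call in the same 6 fits (adjusted p up to 0.0881).

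The hypoxia response depended on cardiac replicate 4. With all libraries, 4 of 26 genes were called higher in the cardiac co-culture and 1, HIF1A, higher in the hepatic one. The median was 0.17, and the shares over all genes were 2.46% and 2.22%. Without cardiac replicate 4, 12 were higher in the cardiac co-culture and 1 in the hepatic one. The median was then 0.38, and the shares over all genes were 2.47% and 2.04%. DDIT4, an inhibitor of mTORC1 induced by hypoxia and other stress, had 448, 483, 405 and 290.5 CPM against 297, 181, 210.4 and 226 (0.83 ± 0.19, adjusted p = 0.039), cardiac replicate 4 being below the highest hepatic library. It reached 0.96 (adjusted p = 0.00226) without cardiac replicate 4 and lost its call without cardiac replicates 1 to 3 or hepatic replicates 2 to 4 (adjusted p up to 0.107).

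Among genes called only without cardiac replicate 4, and named after their values were seen, are SLC2A1, the glucose transporter GLUT1 (from 0.52, adjusted p = 0.159, to 0.67, adjusted p = 0.00191), and KDM3A, a histone demethylase (from 0.33, adjusted p = 0.112, to 0.45, adjusted p = 0.00191). VEGFA, the endothelial growth factor, had 808, 1089, 788 and 353 CPM against 894, 496, 737 and 589 and did not pass with cardiac replicate 4 (0.16 ± 0.35, adjusted p = 0.856) or without it (0.40, adjusted p = 0.359). The hypoxia count was also 2 without any 1 of cardiac replicates 1 to 3 and 1 without any 1 of hepatic replicates 2 to 4.

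Several groups gave no called gene in the edgeR fit of the 8 libraries used throughout. Of 25 G1/S and 24 G2/M genes, 0 passed, also by unadjusted p and by DESeq2, and the medians were 0.13 and -0.02. MKI67, the proliferation marker, had 172, 140.4, 237 and 374 CPM against 144, 231, 160.4 and 208 (0.31 ± 0.33, adjusted p = 0.673), so cardiac replicate 4 was the highest, the groups overlapped, and without that library the difference was -0.02. Of 20 glycolysis genes 0 passed (4 higher and 0 lower by unadjusted p, 3 and 0 by DESeq2), but 4 were higher in the cardiac co-culture without cardiac replicate 4, 2 without a low-count filter, and 1 with DESeq2 size factors, a stricter filter, all 12 libraries or without hepatic replicate 1. Of 51 ribosomal protein genes 0 passed (9 lower in the cardiac co-culture by unadjusted p, 0 by DESeq2, and 4 by edgeR without a low-count filter). Of the 51, 2 had a log2 fold change above 0, against 49.6% over all genes, with a median of -0.15.

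**Figure D5:**
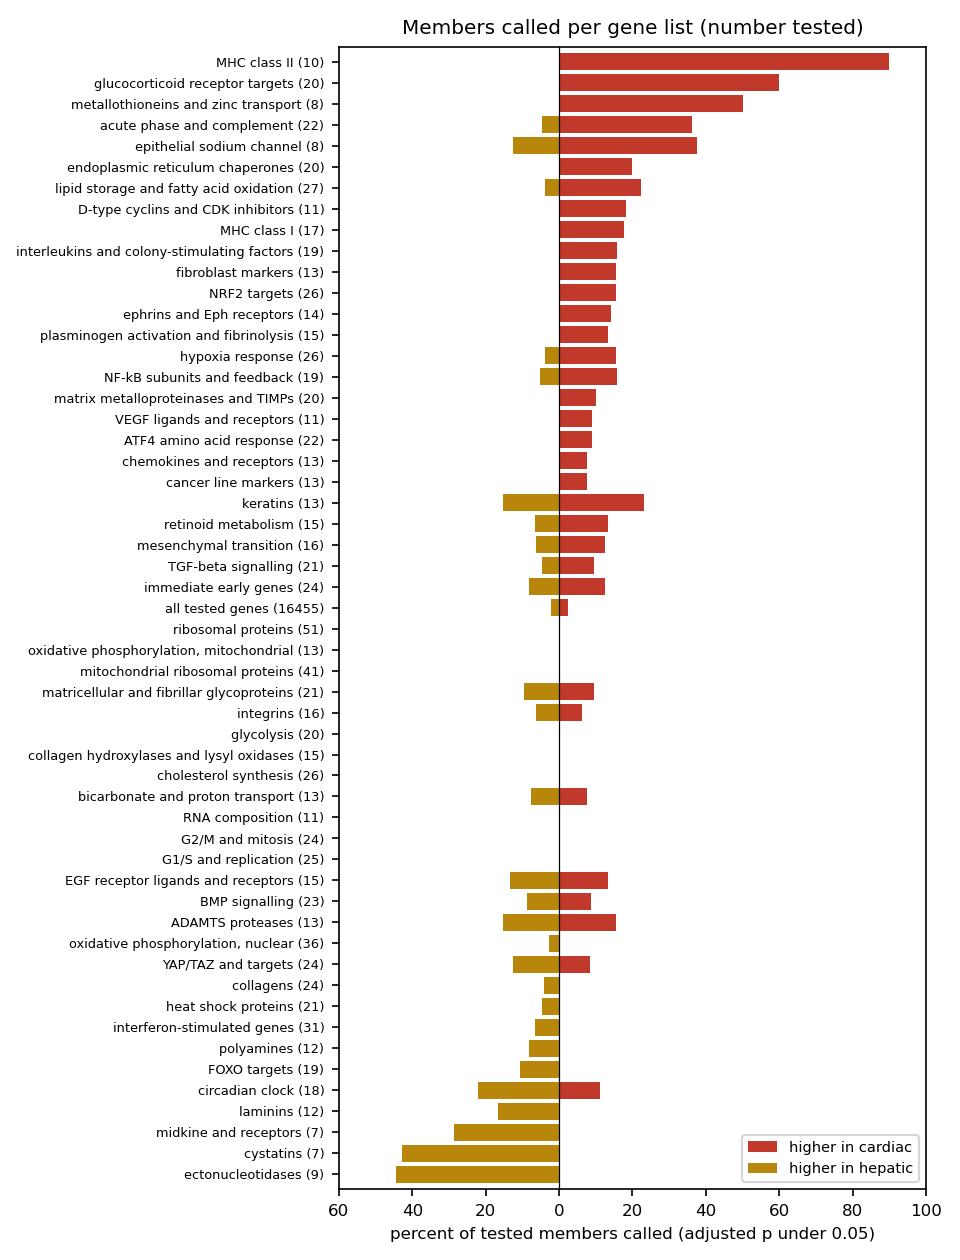
Bars give the percent of tested members of each gene list drawn that were called higher in the cardiac (red, to the right) or hepatic co-culture (gold, to the left), with the number tested in parentheses. The hepatocyte, cardiomyocyte, endothelial and pluripotency marker lists, which had the fewest tested members, are not drawn. MHC class II (9 of 10) and glucocorticoid receptor targets (12 of 20) have the longest red bars, and the bar of all 16455 genes gives the background of 2.46% and 2.22%.

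The series' title speaks of cardiac resistance to metastasis, and genes often read in invasion were taken whatever they did. VIM, the mesenchymal filament (-0.25 ± 0.12, adjusted p = 0.27), CD44, a hyaluronan receptor (-0.13 ± 0.08, adjusted p = 0.398), and FN1, fibronectin (-0.25 ± 0.21, adjusted p = 0.587), did not pass between the co-cultures. Neither did CXCR4, a chemokine receptor linked to metastasis (0.93 ± 0.48, adjusted p = 0.314), TGFB1 (-0.33 ± 0.20, adjusted p = 0.417), the collagen gene COL1A1 (-0.49 ± 0.21, adjusted p = 0.225) or HMOX1, heme oxygenase (-0.06 ± 0.15, adjusted p = 0.871). MMP9, a gelatinase, was too low to be tested. Genes called in this set included CTGF, LAMA3, MT1E, MT2A, ANGPTL4, FKBP5, ATOH8, BMP5 and CSF3, with the values above.

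For 3 others cardiac replicate 4 stood well below its group. MMP1, interstitial collagenase, had 170.0, 147, 147 and 21.4 CPM in the cardiac and 74.2, 41.5, 79.2 and 90.3 in the hepatic libraries (0.77 ± 0.62, adjusted p = 0.576). CXCL8, interleukin 8, had 90.1, 96.4, 71.7 and 26.4 CPM against 42.4, 32.5, 52.8 and 58.2 (0.62 ± 0.41, adjusted p = 0.491). Without cardiac replicate 4 both were called higher in the cardiac co-culture, MMP1 by 1.12 (adjusted p = 0.0468) and CXCL8 by 0.89 (adjusted p = 0.0296). TGFBI, an adhesive matrix protein, had 147, 175, 111 and 60.5 CPM against 113, 57.4, 70.5 and 54.8 and did not pass (0.74 ± 0.39, adjusted p = 0.365).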

How the data were processed

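RNA of cancer tissue was sequenced in 12 libraries, 4 per group. Raw counts per gene were deposited by the authors, made with HISAT2 2.2.1 and featureCounts 2.0.6 on GRCh38, per the submitters' processing notes, which also name DESeq2 1.42.0. The labels describe both stranded and non-stranded kits, so a gene and its antisense or overlapping partner cannot be told apart. All 58735 gene identifiers were matched to GENCODE release 29 for symbols and coordinates.

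The 8 co-culture libraries were fitted with edgeR 4.0.16 (R 4.3.3): filterByExpr, TMM scaling, robust quasi-likelihood tests and Benjamini-Hochberg adjustment over all 16455 genes tested, which held 99.9% of the counts. edgeR's common dispersion gave a coefficient of variation between libraries of 15.2%. Standard errors are the log2 fold change divided by the square root of F. Departures from monoculture came from a fit of all 12 libraries over 17468 genes, and both contrasts share the monoculture libraries. CPM used TMM factors over 12 libraries. On simulated data for this comparison, over 16455 genes, 53.2%, 75.9% and 90.5% of genes changed 1.5-, 2- and 4-fold were recovered, and 7.74% of calls were false. Marker sums were compared by 2-sided exact permutation tests, adjusted over 6 lists.

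Named genes are, at either end of the log2 fold changes, the 10 most extreme of 650 called protein-coding genes whose libraries did not overlap, with a mean logCPM above 1, up to 4 called members of each of 57 lists, and the genes fixed for the series' question, of which 1 is not reported here. Another 17 genes were chosen after their values were seen (TSC22D3, ZBTB16, NR3C1, SGK1, MTF1, SLC30A1, CD74, HLA-DPB1, HLA-DRB1, HLA-DMA, HLA-DOA, CTSS, SAA1, SAA2, LCN2, ORM1 and PLIN4). The members and lists were chosen with earlier results of these data known. Alternatives were DESeq2, other scalings and filters, a minimum fold change, all 12 libraries in 1 fit, a replicate block and leaving out each library.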

Additional observations from a re-analysis of the deposited data

Results flagged for a closer look

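In 13 of 221 groups of 4 libraries examined (5.88%), 1 library lay far from the other 3 by Dixon's criterion, where chance gives about 1 in 20. Cardiac replicate 4 was that library in 7 of them. It was the highest cardiac library for ANPEP (11.9 CPM, the others at 4.39 to 4.72), PDK4 (69.3 CPM, others 58.3 to 59.4), HLA-DMA (33.0 CPM, others 21.7 to 23.6) and ATOH8 (32.7 CPM, others 20.6 to 21.7). It was the lowest for TNIP1 (212.8 CPM, others 255 to 260), NR4A2 (5.23 CPM, others 8.53 to 8.72) and MMP1 (21.4 CPM, others 147 to 170.0).

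Cardiac replicate 1 was the highest cardiac library for summed cancer line markers (6344 CPM, others 6034 to 6070) and the lowest for HYOU1 (249 CPM, others 264 to 265). Hepatic replicate 1 was the highest hepatic library for summed fibroblast markers (474.5 CPM, others 305.4 to 322.6) and C3 (99.3 CPM, others 58.2 to 61.1). Hepatic replicate 4 was the lowest for ITGB3 (42.1 CPM, others 72.4 to 76.3), and hepatic replicate 3 the highest for ATOH8 (5.89 CPM, others 5.04 to 5.17).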

How the results depend on the processing

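DESeq2 called 1240 genes (632 higher in the cardiac and 608 in the hepatic co-culture), and without a low-count filter edgeR called 1296 (680 and 616). A test against a minimum log2 fold change of 1 called 29 (27 and 2). That test asks for more than a difference from 0, and for the other settings the cause was not tested. Leaving out 1 library gave 363 to 923 called genes, 214 to 517 higher in the cardiac and 149 to 406 higher in the hepatic co-culture, 129 to 185 at least 2-fold, and 49.9% to 59% higher in the cardiac co-culture. Genes with a hepatic departure alone then numbered 288 to 623 (52.8% to 87.4% of those called), with a cardiac departure alone 13 to 137, with both 17 to 162 and with neither 23 to 133. The lowest and highest differences of summed markers, cardiac minus hepatic, were -704.7 and -526.2 CPM for the cancer line, 6.69 and 7.88 for cardiomyocytes, -19.8 and -16.3 for endothelium, 80.6 and 139.7 for fibroblasts, 51.4 and 64.7 for hepatocytes and -4.23 and -2.31 for pluripotency. DESeq2 size factors gave 777 called genes, upper-quartile scaling 745 and a stricter filter 756 of 13126. Whether the replicate numbers pair the libraries is not given in the labels. Correlations of same-numbered libraries' deviations were 0.0535, -0.124, 0.0321 and 0.09, and those of differently numbered ones -0.12 to 0.129. Such correlations over all genes cannot decide whether libraries shared a seeding or plate. A replicate block gave 590 called genes (301 and 289), 546 of them shared. The 85 called genes with values kept their direction in every setting run, and 63 of them were called in each of the 8 fits without 1 library. Of the 18 not called, 4 changed sign: without 1 library HMOX1 ranged from -0.123 to 0.0858 (without hepatic replicate 3), MKI67 from -0.0214 (without cardiac replicate 4) to 0.494, SLC30A1 from -0.1497 to 0.0465 (above 0 without cardiac replicate 1 or 2) and VEGFA from -0.057 (without cardiac replicate 2) to 0.401. The fit of 12 libraries called 79 of the 85, losing FCGR2A (adjusted p = 0.063), PDK4 (0.0739), MT1F (0.0635), LCN2 (0.0787), BMP5 (0.15) and DDIT4 (0.057). The block called 82, losing MT1F (0.0904), HLA-DMA (0.0564) and LCN2 (0.0519), and edgeR without a low-count filter lost MT1X, SAA2 and ITGB3. MTF1 was called by DESeq2 and with 12 libraries, and VIM and CTSS without a low-count filter. Low counts limit ORM1, ORM2, SERPINA3, SCNN1B and MT1F.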
